A study of Rattus norvegicus with 24 samples.

Results

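The genes described here encode the constitutive 26S proteasome and its activators in rat cortex. They were chosen by symbol: every array probe annotated to Psma, Psmb, Psmc, Psmd or Psme followed by a digit, without the immunoproteasome genes Psmb8, Psmb9 and Psmb10 and without names ending in ip. The choice gave 37 genes, each with 1 probe, among 13337 named genes and 22523 probes. By role, 16 encode the core particle, 18 the regulatory cap or its assembly chaperones, and 3 the activators. The roles were assigned from a list of 40 symbols, of which Psmd10, Psmd14 and Psme3 were not analysed here.

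The rats were male Wistar animals weighing 250 to 300 g, anesthetized with ketamine and xylazine, and RNA came from tissue labelled as right cortex. Treatment rats had permanent occlusion of the middle cerebral artery and an injection into the cerebral ventricle of 30 mM ZM447439, an Aurora kinase inhibitor, in 80% DMSO. Vehicle rats had the same occlusion and 80% DMSO, and sham rats were operated without occlusion, with no injection stated for them. Each of the 3 groups was sampled at 24 h and at 8 h on 4 Illumina RatRef-12 arrays, which gave 24 arrays. The protocol names the left artery while the tissue label names the right cortex, and the sources used here do not settle which side was taken. The labels do not say whether each array is a separate animal.

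The proteasome degrades proteins tagged with ubiquitin. Its core is a barrel of alpha and beta rings in which 3 beta subunits cut peptide bonds, and its cap recognises ubiquitin, removes it and unfolds the substrate through a ring of ATPases. Activators of the PA28 and PA200 families can bind the core in place of the cap, and the PA28 alpha and beta genes, Psme1 and Psme2, are known to be induced by interferon gamma together with the immunoproteasome subunits. In neurons the proteasome takes part in protein turnover at synapses.

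Comparison between treatment, vehicle and sham was not made for any single gene, because the 12 columns of a time point held 1 profile times 1 factor per array. Across the 37 genes the largest departure from that profile was 1.92e-07 log2 units among the 24 h columns and 1.64e-07 among the 8 h columns. The array medians ran from 76.8 to 115 intensity units at 24 h and from 65.3 to 90.1 at 8 h, and each column was divided by its median. A level below is a value in the 24 h or the 8 h profile as a multiple of that array median, and a difference is the log2 ratio of the 24 h over the 8 h level. They carry no replicate error and no p-value, and fold sizes of 1.2 and 1.5 serve as sizes only. The files do not say which arrays each profile was made from, and effects of injury, drug and surgery cannot be told apart within it. In such bulk tissue, fewer cells of a type and less RNA per cell cannot be told apart.

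The promoter sequences of 4 genes are shown because they belong to the members at the ends of the range described below: both PA28 genes, the lowest member (Psmc5) and the highest core member (Psmb6). Each covers 250 bases before and 50 bases after the gene start, from RefSeq on build GRCr8, written 5′ to 3′ on the gene's strand. Capitals mark matches to the 3 motifs described below and to no other motif. Psme1 lies at chr15:33038721-33039020 on the plus strand, Psme2 at chr15:33052702-33053001 on the minus strand, Psmc5 at chr10:91687303-91687602 and Psmb6 at chr10:55737638-55737937, both on the plus strand.
Psme1: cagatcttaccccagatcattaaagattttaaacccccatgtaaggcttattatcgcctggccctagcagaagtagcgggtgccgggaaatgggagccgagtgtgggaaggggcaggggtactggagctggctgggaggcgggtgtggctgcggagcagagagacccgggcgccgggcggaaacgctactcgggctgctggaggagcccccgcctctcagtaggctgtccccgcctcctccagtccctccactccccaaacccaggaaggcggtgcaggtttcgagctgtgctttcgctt
Psme2: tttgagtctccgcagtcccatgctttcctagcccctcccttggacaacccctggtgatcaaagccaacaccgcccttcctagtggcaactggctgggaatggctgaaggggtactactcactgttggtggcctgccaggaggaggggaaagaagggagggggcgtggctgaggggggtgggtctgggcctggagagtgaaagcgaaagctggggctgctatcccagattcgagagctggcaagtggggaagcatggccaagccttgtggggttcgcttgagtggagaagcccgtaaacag
Psmc5: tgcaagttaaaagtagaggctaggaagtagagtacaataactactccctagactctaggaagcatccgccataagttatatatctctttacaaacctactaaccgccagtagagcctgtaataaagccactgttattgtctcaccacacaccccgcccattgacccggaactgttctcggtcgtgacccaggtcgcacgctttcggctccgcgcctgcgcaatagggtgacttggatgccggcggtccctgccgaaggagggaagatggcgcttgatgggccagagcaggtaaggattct
Psmb6: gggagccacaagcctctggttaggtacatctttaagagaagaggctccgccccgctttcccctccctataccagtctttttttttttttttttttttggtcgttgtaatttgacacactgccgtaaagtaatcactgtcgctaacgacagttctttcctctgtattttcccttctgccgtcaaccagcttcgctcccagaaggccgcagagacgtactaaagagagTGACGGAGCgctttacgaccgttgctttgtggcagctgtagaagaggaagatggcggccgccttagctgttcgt

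Of the 37 genes, 33 had a promoter in the RefSeq table, which holds 33469 promoters of the same length. The antioxidant response motif TGANNNNGC, bound by NRF1 and NRF2, the factors known to raise proteasome gene transcription, was searched on both strands, as were the other motifs. It occurred in 19 of the 33 members (57.6%) and in 40.5% of all promoters. The Psmb6 promoter held 1 match, TGACGGAGC, starting 24 bases before the gene start. The NF-Y motif CCAAT occurred in 15 members (45.5%) against 37.5% of all promoters, and the heat shock motif GAANNTTC in 2 members against 8.59%. None of the 3 motifs was found in the printed windows of Psme1, Psme2 and Psmc5. These are matches of letters, and binding was not measured.

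Among the 37 genes, the PA28 genes Psme1 and Psme2 had the largest differences between the profiles, both higher at 24 h. Psme1, the PA28 alpha subunit, had a level of 31.2 at 24 h against 17.2 at 8 h. This is a log2 difference of 0.86, or 1.82-fold, the 58th highest of all 22523 probes. Psme2, the PA28 beta subunit that forms a ring with PA28 alpha, had a level of 4.49 at 24 h against 3.18 at 8 h, a log2 difference of 0.50, or 1.41-fold, the 212th highest. Psme4, which encodes the PA200 activator, had levels of 6.59 at 24 h and 6.52 at 8 h, a difference of 0.01. Psme1 thus differed from Psme4 by 0.85 log2 in its change and Psme2 by 0.48.

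The deposited intensities of Psme1 ran from 2398 to 3588 on the 24 h arrays, with a median of 2746, and from 1121 to 1546 on the 8 h arrays, with a median of 1367. At 24 h they lay between 2707 and 3149 in treatment, between 2585 and 3588 in vehicle and between 2398 and 2835 in sham arrays. At 8 h the ranges were 1121 to 1542 in treatment, 1318 to 1546 in vehicle and 1278 to 1446 in sham arrays. No 24 h array overlapped an 8 h array, whatever the group, and the ranges of the 3 groups overlapped within each time. For Psme2 the intensities ran from 345 to 516 at 24 h (median 395) and from 208 to 287 at 8 h (median 253), again without overlap. The other 35 members overlapped between the times. Over all probes 4.71% had intensities that did not overlap between the times, against 2 of 37 members. Arrays of a time differ only by a factor common to every probe, so these ranges are not independent measurements of the gene. Whether they overlap follows from the gene's difference and the array medians alone. Those medians ran from 76.8 to 115 at 24 h and from 65.3 to 90.1 at 8 h. A gene lower at 24 h therefore needed a larger difference to separate than a gene higher at 24 h.

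**Figure D1:**
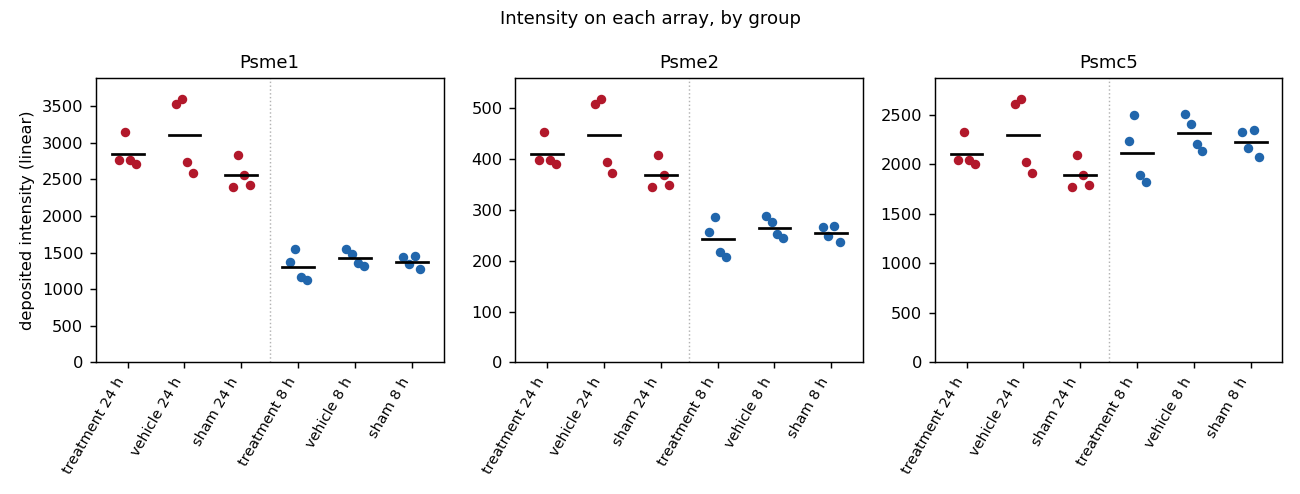
Deposited intensity (linear, y axis from 0) of Psme1, Psme2 and Psmc5 on each of the 24 arrays, with the 24 h groups in red left of the 8 h groups in blue and a bar at each group's mean of 4 arrays. Psme1 and Psme2 do not overlap between the times and Psmc5 does, which follows from their differences and the array medians alone. The pattern of arrays within a time is the same in every panel because it is the array factor.

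Psme1 and Psme2 lie close together on chromosome 15, with 1 protein-coding gene, Emc9, between them in RefSeq. Emc9, a subunit of an endoplasmic reticulum membrane complex, had a level of 8.14 at 24 h against 7.72 at 8 h, a difference of 0.08. The flanking genes were Fitm1, with levels of 0.748 at 24 h and 0.785 at 8 h, and Rnf31, a ubiquitin ligase gene, with levels of 4.59 at 24 h and 6.22 at 8 h, a difference of -0.44. No neighbour passed 1.2-fold higher, unlike the pair, and Rnf31 passed it lower.

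Without the activators, 34 genes remained, and 33 of them lay within 1.2-fold of no difference. Their differences ran from -0.27 to 0.16. The 37 genes together had a median difference of -0.09, with 10 higher and 27 lower at 24 h. Over all probes 46.9% were higher and 53.1% lower, with a median of -0.01. Proteasome probes are bright: 32 of the 37 belonged to the brightest 25% of probes, where 34.6% were higher and 65.4% lower, with a median of -0.08. The median of all 37 genes, the less bright ones included, was -0.01 log2 away from theirs. The 32 members of that brightness had a median of -0.12, with 7 higher and 25 lower (78.1%).

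Past 1.2-fold, 2 members were higher at 24 h, Psme1 and Psme2, against 3.62% of all probes and 7.28% of the brightest 25%. A single member, Psmc5, was lower, against 6.13% of all probes and 17.5% of the brightest 25%. Past 1.5-fold, Psme1 alone was higher and no member was lower, against 0.617% and 0.497% of all probes. Within 1.2-fold lay 91.9% of the members, 90.3% of all probes and 75.2% of the brightest 25%.

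**Figure D2:**
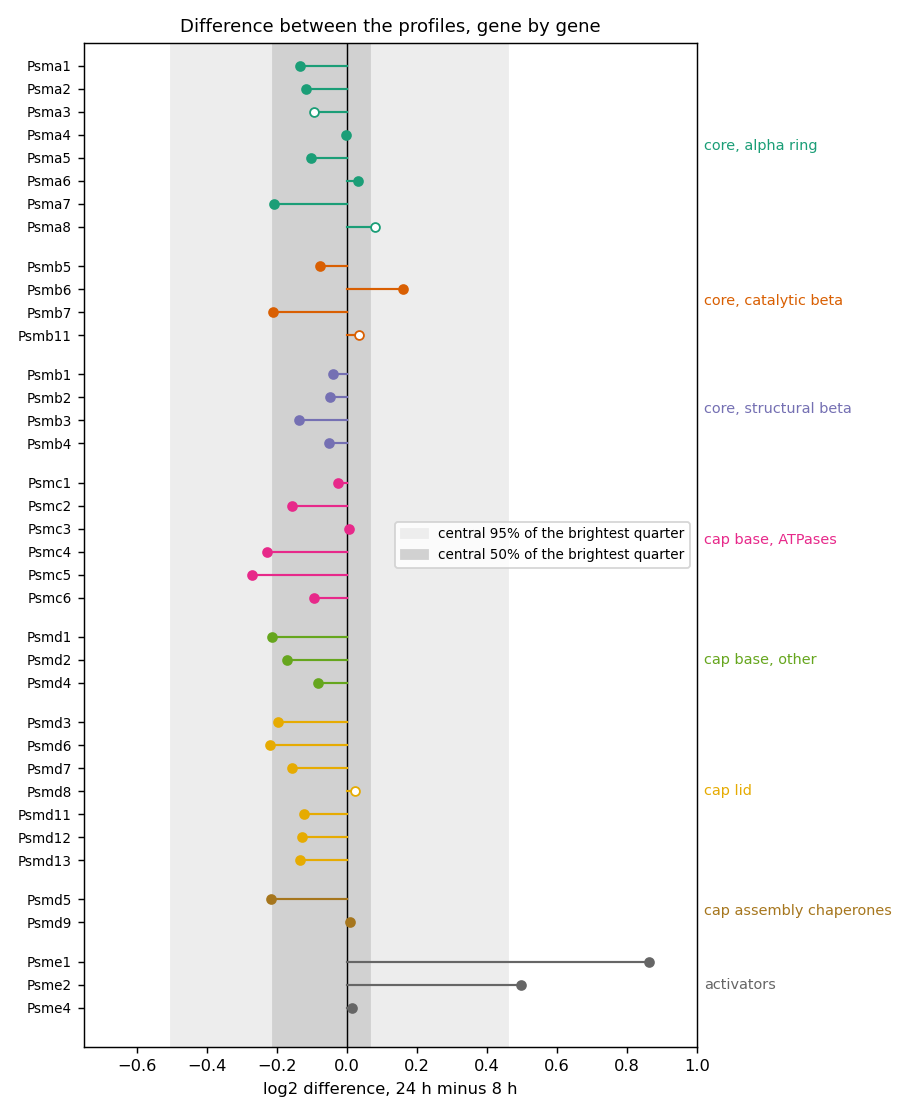
Log2 difference (24 h minus 8 h) of each of the 37 genes, ordered by role, with open points for the 4 dim genes, whose level was under 1.5 at one of the times. Grey bands give the central 50% and 95% of the brightest 25% of probes. Psme1 at 0.86 and Psme2 at 0.50 lie outside the outer band, and every other gene lies inside it.

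The alpha ring forms the outer gates of the core. Its 8 genes had a median difference of -0.10, with 2 higher and 6 lower at 24 h. Psma7 was lowest, at a level of 61.6 at 24 h against 71.2 at 8 h, a difference of -0.21. Psma6 was highest among those that were not dim, with levels of 48.6 at 24 h and 47.5 at 8 h, a difference of 0.03. Psma1 (-0.13), Psma2 (-0.12), Psma5 (-0.10) and Psma4 (0.00) lay between them. Psma3 was dim (a level under 1.5 at one of the times), at a level of 1.43 at 24 h against 1.52 at 8 h. Psma8, known from testis-specific proteasomes, stood under the array median in both profiles, with levels of 0.883 at 24 h and 0.835 at 8 h.

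The catalytic beta genes differed in direction. Psmb6, the caspase-like subunit beta 1, was 1.12-fold higher at 24 h, with levels of 33.1 at 24 h and 29.6 at 8 h, and had the highest difference of the core genes, 0.16. Its intensity ran from 2542 to 3802 at 24 h and from 1934 to 2667 at 8 h. Those ranges overlapped. Psmb7, the trypsin-like subunit beta 2, had a level of 31.4 at 24 h against 36.4 at 8 h, a difference of -0.21. Psmb5, the chymotrypsin-like subunit beta 5, had levels of 40.7 at 24 h and 43.0 at 8 h, a difference of -0.08. Psmb11, known from thymus-specific proteasomes, stood under the median with levels of 0.895 at 24 h and 0.873 at 8 h. Psmb6 and Psmb7 were thus the highest and the lowest of the core genes, with Psma7 (-0.21) almost as low as Psmb7. Neither Psmb6 nor Psmb7 passed 1.2-fold.

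The structural beta genes were all slightly lower at 24 h with a median difference of -0.05, but Psmb1, Psmb2 and Psmb4 turned to 0.01, 0.01 and 0.00 when the columns were scaled to the 75th percentile. Psmb1 had levels of 69.9 at 24 h and 71.9 at 8 h, a difference of -0.04, and Psmb3 had levels of 35.9 at 24 h and 39.4 at 8 h, a difference of -0.14. Psmb2 and Psmb4 each differed by -0.05. RefSeq also lists copies named Psmb3l1 and Psmb6l1, and whether they bind the Psmb3 and Psmb6 probes was not tested.

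Of the 18 cap genes 15 were lower at 24 h, with a median difference of -0.14, and of the 16 core genes 12, with a median of -0.06. Beside them, 65.4% of the brightest 25% of probes were lower, with a median of -0.08. Without the dim members the counts were 15 of 17 and 11 of 13. Scaled to the 75th percentile the counts were 14 of 18 cap genes and 8 of 16 core genes. Genes are not replicates, and a contrast between cap and core was not tested.

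The base ATPases thread the unfolded substrate into the core, and their 6 genes had a median difference of -0.13. Psmc5, which encodes the ATPase Rpt6, was the lowest of all members, at a level of 23.1 at 24 h against 27.8 at 8 h, a difference of -0.27. Its intensity ran from 1773 to 2652 at 24 h and from 1817 to 2506 at 8 h. That these ranges overlapped follows from its difference and the array medians, which ran higher at 24 h, and adds no further evidence on the gene. Psmc4 (-0.23) and Psmc2 (-0.16) followed, while Psmc6 had levels of 1.91 at 24 h and 2.04 at 8 h and Psmc1 (-0.03) had levels of 79.5 at 24 h and 81.0 at 8 h. Psmc3 was the highest of the ring, with levels of 6.90 at 24 h and 6.87 at 8 h, a difference of 0.01. Between the lowest and the highest ATPase gene the change thus differed by 0.28 log2.

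Psmd1 and Psmd2 encode the large scaffold subunits of the base and Psmd4 a ubiquitin receptor. All 3 were lower at 24 h. Psmd1 was lowest, with levels of 16.8 at 24 h and 19.5 at 8 h, a difference of -0.21. Psmd4 was highest, with levels of 29.7 at 24 h and 31.4 at 8 h, a difference of -0.08, and Psmd2 differed by -0.17.

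The lid covers the base and holds the deubiquitinating activity of the cap. Its 6 bright genes were all lower at 24 h, with differences from -0.22 to -0.12. Psmd6 was lowest, at a level of 39.3 at 24 h against 45.7 at 8 h, and Psmd11 was the least negative, with levels of 45.4 at 24 h and 49.4 at 8 h. Psmd3 (-0.20), Psmd7 (-0.16), Psmd12 (-0.13) and Psmd13 (-0.13) lay between. The seventh gene, Psmd8, was dim, with levels of 1.17 at 24 h and 1.15 at 8 h. Of the chaperones that assemble the base, Psmd5 had levels of 4.61 at 24 h and 5.36 at 8 h, a difference of -0.22, and Psmd9 had levels of 3.85 at 24 h and 3.83 at 8 h, a difference of 0.01.

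**Figure D3:**
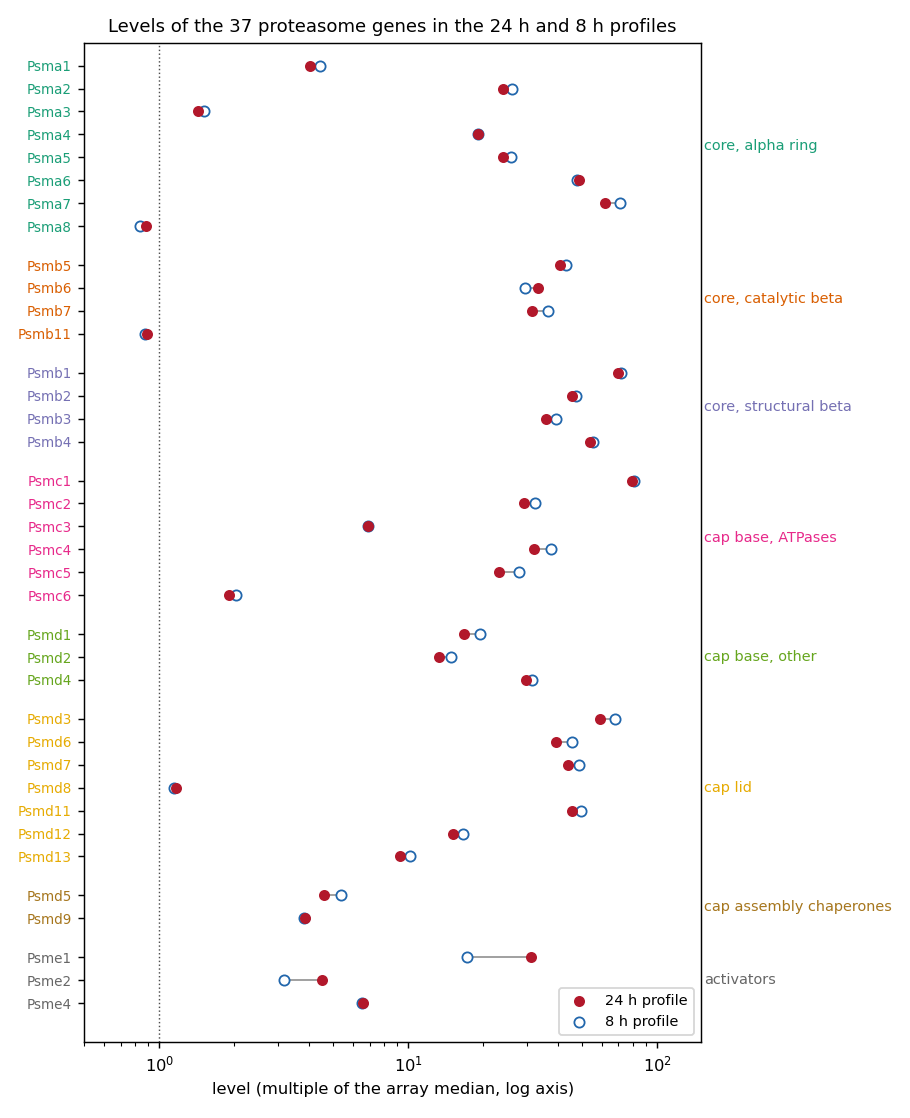
Level of each of the 37 genes in the 24 h profile (filled red) and the 8 h profile (open blue), as a multiple of the array median on a log axis, by role. Most pairs of points touch, and those of Psme1 and Psme2 stand apart with the 24 h level higher. Brightness depends on the probe, so levels are not compared between genes.

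The direction of 5 of the 37 differences, those of Psma4, Psmb1, Psmb2, Psmb4 and Psmc1, turned under one or both of the other scalings, and that of the other 32 did not. Scaled to the 75th percentile, 22 members were lower and 15 higher with a median of -0.04, and after quantile normalization 23 were lower and 13 higher, also with a median of -0.04. In both settings no member was past 1.2-fold lower, Psmc5 included, while Psme1 and Psme2 were past 1.2-fold higher in each.

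The immunoproteasome genes replace the catalytic beta genes in cells exposed to interferon. Psmb8, which takes the place of Psmb5, had a level of 6.37 at 24 h against 3.78 at 8 h, a difference of 0.76. Its change exceeded that of Psmb5 by 0.83 log2. Psmb9, in place of Psmb6, was dim at 8 h, with levels of 1.78 at 24 h and 1.41 at 8 h, and its change exceeded that of Psmb6 by 0.18. Psmb10, in place of Psmb7, had levels of 26.9 at 24 h and 25.1 at 8 h, with 0.10 at this probe and 0.05 at its second, and exceeded Psmb7 by 0.31. Psmb8 and the dim Psmb9 passed 1.2-fold higher, as did 3.62% of all probes, and Psmb10 did not.

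Markers of microglia and macrophages, cells in which these inducible genes are known to be active, were also higher at 24 h. Of 6 measured markers of the 8 listed, 5 were higher and 4 passed 1.2-fold higher. Beside them, 46.9% of all probes were higher, while 3.62% of all probes and 7.28% of the brightest probes defined above passed 1.2-fold higher. Dim markers numbered 3: Itgam, which was among those past 1.2-fold (1.68 at 24 h and 1.19 at 8 h), Cx3cr1 and Ptprc. The levels of the 6 markers summed to 80.7 at 24 h against 44.9 at 8 h. Aif1 had levels of 33.3 at 24 h and 15.7 at 8 h and C1qb had levels of 32.6 at 24 h and 17.9 at 8 h, whereas Cx3cr1 (1.03 at 24 h and 1.04 at 8 h) and Ptprc (1.05 at 24 h and 0.912 at 8 h) were near the array median in both. Their part in the difference of Psme1 and Psme2 was not tested.

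Other tissue markers differed as well. The labelled cortex carried neuronal markers, with Slc17a7 of excitatory neurons at a level of 8.39 at 24 h against 10.6 at 8 h. Neuronal markers were lower in 8 of 9, with a summed level of 396 at 24 h against 442 at 8 h, and all 5 oligodendrocyte markers were lower, with 180 at 24 h against 241 at 8 h. Striatal markers were higher in 5 of 6 and summed to 94.6 at 24 h against 65.8 at 8 h. Choroid plexus markers were higher in 4 of 4 and summed to 32.9 at 24 h against 7.51 at 8 h, most of it Ttr. The others, Clic6, Folr1 and Kl, were dim and under the array median in both profiles, so only Ttr can be read there. Astrocyte markers were higher in 3 of 5, summing to 376 at 24 h and 260 at 8 h. Without Gfap (241 at 24 h and 124 at 8 h) the other 4 summed to 135 at 24 h and 136 at 8 h. Vascular markers summed to 40.5 at 24 h and 36.1 at 8 h, and without Tagln (6.34 at 24 h and 2.87 at 8 h) the other 3 summed to 34.2 at 24 h and 33.3 at 8 h, with Cdh5 and Tek dim. Their part in the small differences of the constitutive genes was not tested.

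Factors that build or bind the proteasome moved in both directions. Of the 10 measured genes of 18 listed, 4 were higher and 6 lower, with 2 past 1.2-fold on each side and a median of -0.04. Among all probes 46.9% were higher and 53.1% lower, with 3.62% past 1.2-fold higher and 6.13% past it lower. The higher pair were core assembly chaperone genes: Psmg1 had a level of 18.1 at 24 h against 14.1 at 8 h (0.36), and Pomp, which guides beta ring maturation, had levels of 2.72 at 24 h and 2.12 at 8 h (0.36). Psmg2, a gene of the same kind, lay within 1.2-fold, with levels of 2.72 at 24 h and 2.6 at 8 h (0.07). The lower pair were Adrm1, a ubiquitin receptor of the cap, with levels of 3.39 at 24 h and 4.68 at 8 h (-0.47), and Zfand2a, an arsenite-inducible proteasome-associated protein, with levels of 5.96 at 24 h and 7.86 at 8 h (-0.40). The deubiquitinase genes Usp14 (-0.06) and Uchl5 (-0.08), both of the cap, and the transcription factor gene Nfe2l2 (-0.03) lay near 0.

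Ubiquitin and shuttle genes had a median of -0.08. Of 17 measured genes of 26 listed, 4 were higher and 13 lower, with 3 past 1.2-fold lower and none past it higher. The share past 1.2-fold lower is near the 17.5% of the brightest 25% of probes and above the 6.13% of all probes. The list is not all of that brightness, since 4 of its 17 genes were dim. By any amount, 53.1% of all probes were lower. The 3 genes were Rad23b, a shuttle that carries ubiquitinated proteins to the cap, at a level of 4.05 at 24 h against 6.35 at 8 h (-0.65), the conjugating enzyme gene Ube2d1 with levels of 9.29 at 24 h and 12.6 at 8 h (-0.44), and Ufd1, a cofactor of the segregase p97, with levels of 6.84 at 24 h and 9.14 at 8 h (-0.42). The p97 gene itself, Vcp, differed by 0.02.

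**Figure D4:**
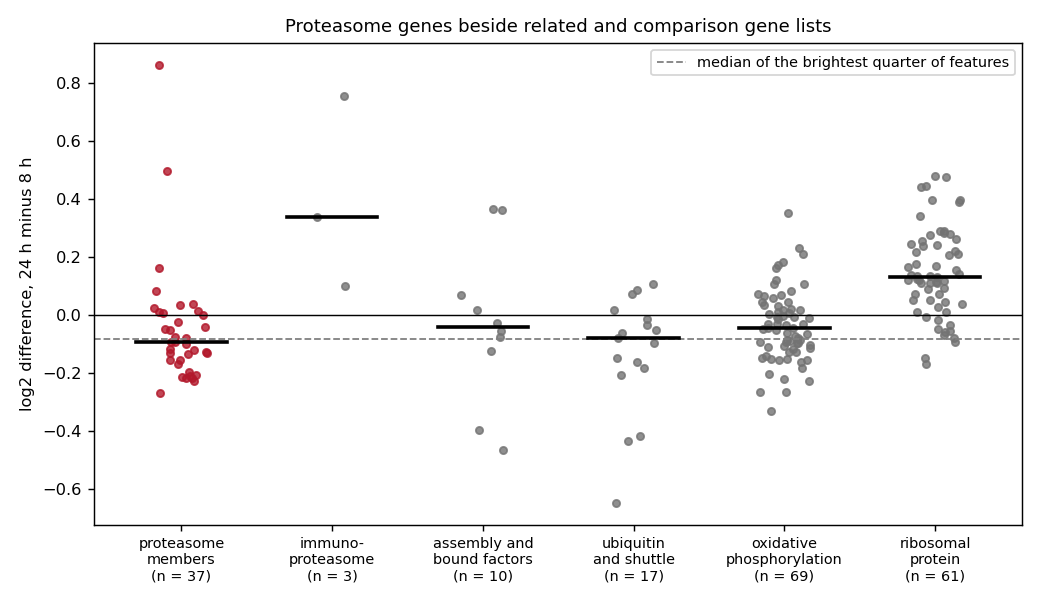
Log2 difference (24 h minus 8 h) of each gene in 6 lists, with a black bar at the list median and a dashed line at the median of the brightest 25% of probes. The proteasome genes cluster just under 0 with Psme1 and Psme2 above them, and ribosomal protein genes lie mostly above 0.

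The 37 genes were set beside gene lists for other large complexes with many bright probes. These lists were taken by the form of the symbol. They thus also hold genes that are not subunits, such as the oxidative phosphorylation assembly factors named Ndufaf. Of 61 ribosomal protein genes, 50 were higher at 24 h and 13 passed 1.2-fold higher, with a median of 0.13. Of 69 oxidative phosphorylation genes, 24 were higher, 1 passed 1.2-fold higher and 3 passed it lower, with a median of -0.05. Beside both lists, 46.9% of all probes were higher, 3.62% passed 1.2-fold higher and 6.13% passed it lower. For the brightest probes defined above these shares were 34.6%, 7.28% and 17.5%. The central 50% of differences ran from -0.16 to 0.01 for the proteasome genes, from 0.04 to 0.25 for the ribosomal protein genes and from -0.11 to 0.03 for the oxidative phosphorylation genes. These differences between lists were not tested, since the profiles have no replicates. The ribosomal median stayed positive under scaling to the 75th percentile (0.18) and quantile normalization (0.16).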

How the data were processed

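Cortex RNA was measured on 24 arrays of Illumina RatRef-12 version 1 beadchips, on 2 slides, with biotinylated cRNA made by the Ambion MessageAmp kit, per the labels' protocols. The intensities were used as deposited by the authors, on a linear scale. Background correction, scaling, normalization and detection calls are not given in the sources used here. A table of non-normalized values has 24 columns headed only by running numbers, which match no label, and was not used.

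Each column was divided by its median, and the 12 columns of a time, 1 profile times a factor, were reduced to their median. The models of sham, vehicle and treatment could not be fitted to such columns. For the same reason the 12 columns of a time add no precision to the level of a gene. Symbols came from the platform annotation, and all 37 gene identifiers were found in the RefSeq table (GRCr8) under the same symbol. A listed gene with several probes is represented by the brightest. A probe with a level under 1.5 at one of the times is called dim.

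Named genes were all members, and those past 1.2-fold of the immunoproteasome, assembly and bound factor, and ubiquitin and shuttle lists. Other genes named from these lists, and the tissue markers named, were examples chosen after their values were seen. Many tissue markers past 1.2-fold are not named, nor are the ribosomal and oxidative phosphorylation genes past it. The members and lists were chosen with earlier results of these data known. Further promoter motifs searched after the values were seen are not reported here. The procedure was run on simulated columns without noise, which checks its arithmetic and not the accuracy of the measured values. Alternatives were scaling, quantile normalization, background subtraction, filters on dim probes, probe averaging and leaving out replicates. Python 3.11.15, numpy 2.4.6, pandas 2.3.3 and matplotlib 3.10.9 were used.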

Additional observations from a re-analysis of the deposited data

Results flagged for a closer look

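At 24 h, 1 treatment array stood apart from the other 3 of its group, with a median intensity of 101 against a group low of 86.7. The gap was 0.866 of the group's range, above the limit for 4 samples, which chance passes in about 1 of 20 groups. The array's factor is the same for every probe and is removed by division by the median, so no proteasome difference above rests on it.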

How the results depend on the processing

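No paired analysis was possible because the columns of a time are 1 profile times 1 factor per array, so a replicate block has nothing to remove. For the same reason, leaving out each replicate number in turn gave the reported values: -0.09 to -0.09 for the median of the 37 genes, 0.50 to 0.50 for the activators, 2 to 2 genes past 1.2-fold higher and 1 to 1 past it lower. Psmc5 was the gene past 1.2-fold lower, and the count was 0 with scaling to the 75th percentile, after quantile normalization and after subtraction of the 1st percentile, where Psmc5 stood at -0.21, -0.21 and -0.26, close to the 1.2-fold line. Quantile normalization moved the median to -0.09 for the other base genes, -0.02 for the cap chaperones and 0.57 for the activators (Psme2 at 0.57). With the 1st percentile subtracted and values floored at 8, the result was 0.63 for the activators, which is Psme2, and 3 genes were past 1.2-fold higher, the dim Psma8 (0.41) being the third. An alternative chosen after seeing the data took differences relative to the median of the brightest 25% of probes. It gave -0.01 for all 37 genes, -0.01 for the alpha ring, 0.06 for the catalytic and 0.03 for the structural beta genes, -0.04 for the ATPases, -0.09 for the other base genes, -0.05 for the lid, -0.02 for the cap chaperones and 0.58 for the activators, with 17 genes higher and 0 past 1.2-fold lower. There Psme1 stood at 0.95, Psme2 at 0.58 and Psmc5 at -0.19. Psme1 and Psme2 were past 1.2-fold higher under each of these alternatives. Within each of the 2 slides, also added later, the values were as reported. Of 160 values under alternatives other than leaving out replicates, 137 stayed within a limit. It was 0.07 log2, the median size of difference over all probes, or 1.5 times for a count. Part of that tally was fixed in advance, so it does not measure how stable the results are. Probe averaging and the within-slide settings could not change any value, and filters on brightness could not change that of a single gene. Probe averaging changed nothing, since each member has 1 probe. Signal over background is unknown without detection calls, and the 4 dim genes Psma3, Psma8, Psmb11 and Psmd8 limit what can be read from them.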
